A study of Danio rerio with 2 samples.

Results

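The activity-induced transcription factor genes of 3 families, 10 in all, were followed through the pituitary of female zebrafish: egr1, egr2a, egr2b, egr3 and egr4 of the EGR family, nr4a1, nr4a2a, nr4a2b and nr4a3 of the NR4A family, and npas4a. They were taken by symbol, and all 10 of the listed symbols were present among the 25432 genes of the deposited table. The study dissociated pituitaries of gnrh3-/- and WT females and made 1 droplet library per genotype. The gnrh3-/- library came from females aged 3 months that lack Gnrh3, the hypothalamic gonadotropin-releasing hormone of this species, and the WT library from wild-type females of the same age. Each library was a pool of 5 pituitaries, dissected 1 hour before lights on and dissociated for 40 minutes at 28.5 °C before capture. Values are given for 13 of the 14 cell types that the authors annotated, with 4456 gnrh3-/- cells and 1955 WT cells in them.

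The members of these families are immediate-early genes: their transcription starts within minutes of a stimulus at the cell surface and needs no new protein. EGR proteins are zinc finger factors, and in mammalian gonadotropes EGR1 is induced by gonadotropin-releasing hormone and activates the gene of the LH beta subunit. NR4A proteins are orphan nuclear receptors, and in mammalian corticotropes NR4A1 (Nur77) carries the signal of corticotropin-releasing hormone to the Pomc gene. NPAS4 is a bHLH-PAS factor that calcium entry induces in mammalian neurons. Because such genes respond quickly, they also respond to handling, and dissociation of tissue at a warm temperature is a known inducer.

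For a given type and library, the unique molecular identifiers (UMIs) of a gene were added up over cells, and the level is this sum per 10000 UMIs counted on any gene. UMIs were counted at the 3′ end and are not scaled by transcript length, so levels are compared between cell types and genotypes and not between genes. As there was 1 library per genotype, differences between genotypes could not be set against replicates, and cells were not tested as if they were replicates. All intervals are exact 95% intervals (Poisson for levels, binomial for ratios, Clopper-Pearson for shares of cells), and they cover counting error only. A difference is given as log2 of the gnrh3-/- level divided by the WT level (the log2 ratio), computed where a gene had at least 20 UMIs in a type over both libraries, and called lower or higher where it passed 1.5-fold.

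Over all barcodes the gnrh3-/- library held 38809315 UMIs and the WT library 25405369 UMIs, of which 85.6% and 86.5% lay in kept cells, and 1 cell barcode occurred in both libraries. WT cells were deeper in each of the 13 types, with a median UMI count 1.36 to 2.01 times that of gnrh3-/- cells. The hormone gene that marks each hormone type was highest in that type in both libraries. The genes shared by 2 types were highest in somatotropes alpha (gh1) and melanotropes (pomca) in both libraries. Hormone genes of other types summed to a higher level in gnrh3-/- cells in all 13 types (26.1 to 581, against 3.78 to 307 in WT cells), and ratios without the cells richest in them are given below. The 307 was that of WT somatolactotropes alpha, where smtlb was among the genes summed, at 224 in gnrh3-/- and 282 in WT cells. The study takes smtla and smtlb together as markers of somatolactotropes. The estimated share of free RNA was also higher in the gnrh3-/- library in all 13 types, at 0.405% to 1.61% of the UMIs against 0.0850% to 0.513% in the WT library. The targeted gene checks no label here, since gnrh3 is made in the brain: 1 UMI of gnrh3 was counted over all barcodes of the gnrh3-/- library and 2 in the WT library.

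All 10 genes were detected in both libraries, but their abundance differed widely. In all kept cells egr4 had the most UMIs, 27242 in the gnrh3-/- library and 19462 in the WT library, and egr1 (ENSDARG00000037421) followed with 20567 and 15920. egr2a had 4461 UMIs in gnrh3-/- cells and 2807 in WT cells. nr4a1 (ENSDARG00000000796) had 5155 UMIs in gnrh3-/- cells and 4225 in WT cells, and npas4a (ENSDARG00000055752) had 4535 and 3037. The fewest UMIs were those of the duplicated pair nr4a2a (59 UMIs in gnrh3-/- cells and 81 in WT cells) and nr4a2b (58 and 220). egr2a with egr2b and nr4a2a with nr4a2b are zebrafish paralogs of 1 mammalian gene each. None of the 10 was restricted to cells. Empty droplets were barcodes with 10 to 100 UMIs that are not kept cells. In them the level of npas4a was 1.52 in the gnrh3-/- library and 1.75 in the WT library. Over the cells of the 13 types it was 1.41 and 1.46.

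Each gene had its own order of cell types. The plot of levels by type shows 9 types with at least 50 cells in each library, and 6 of the 10 genes had their highest level in the same type in both libraries. Without hormone genes in the total this number was 4. The share of all genes with the same highest type in both libraries was not counted.

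**Figure D1:**
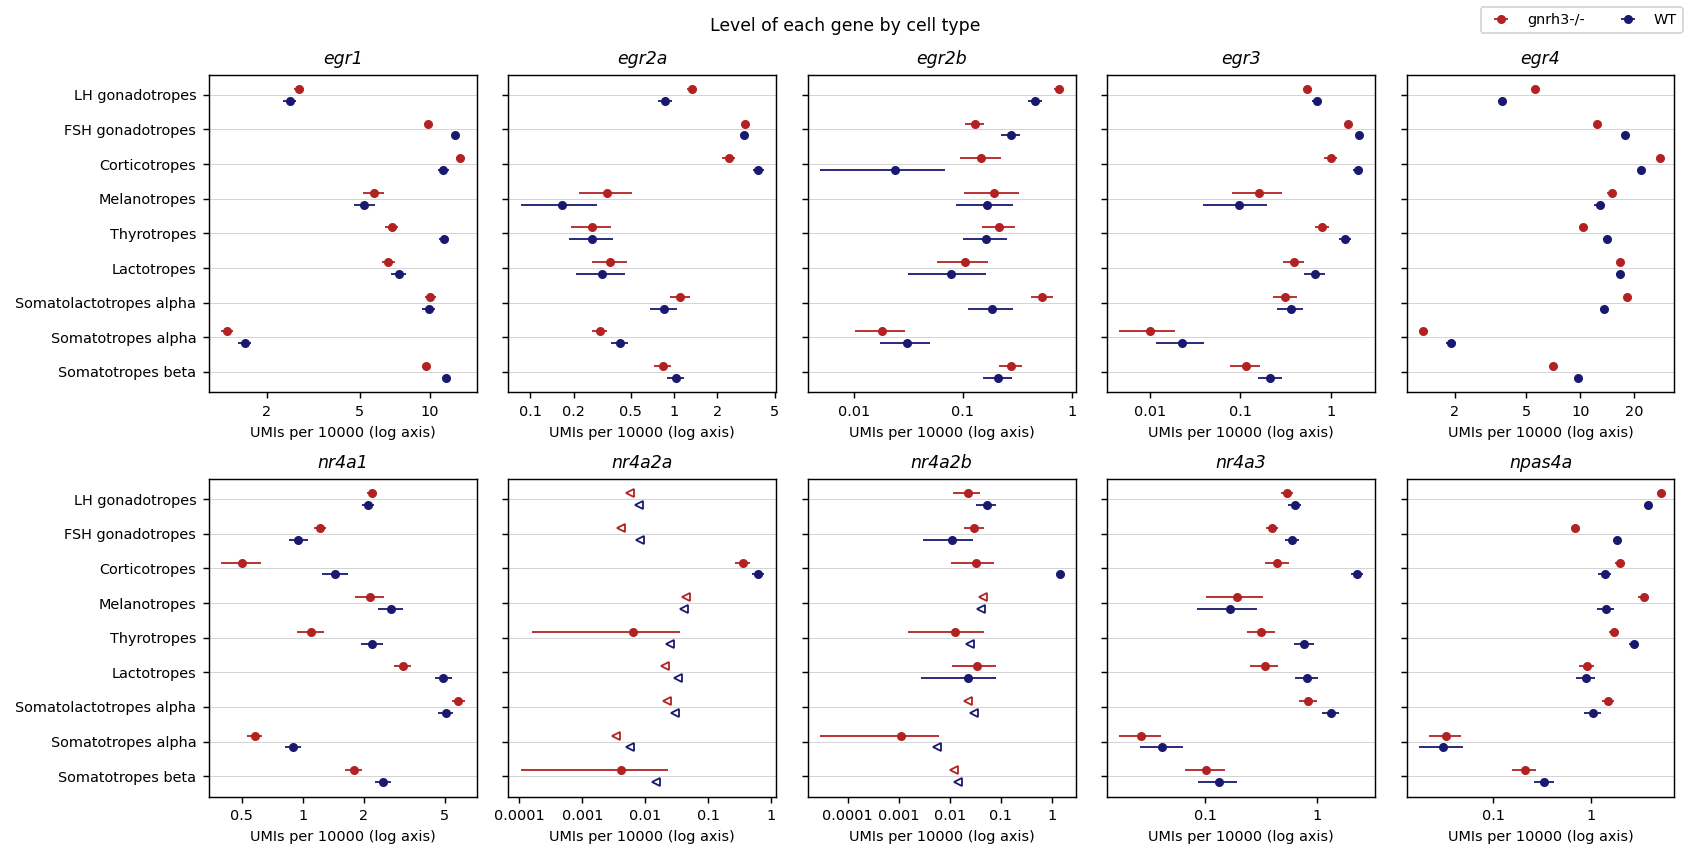
Level of each of the 10 genes (UMIs per 10000 UMIs, log axis) in 9 cell types, with gnrh3-/- above WT in each pair and bars for exact Poisson 95% intervals; open triangles mark the limit of 3 counts where no UMI was found. The panel of nr4a2b has 0.0321 in gnrh3-/- corticotropes and 1.46 in WT corticotropes, the point far above the rest.

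egr1, the family member best known in gonadotropes, stood low in the LH type and high in the FSH type. Its level was 2.75 in gnrh3-/- LH gonadotropes and 2.50 in WT LH gonadotropes, above only somatotropes alpha among the 9 types (1.35 in gnrh3-/- cells and 1.61 in WT cells). FSH gonadotropes stood near the other end, at 9.75 in gnrh3-/- cells and 12.8 in WT cells, the highest level of egr1 in the WT library. Without hormone genes in the total, WT somatotropes beta were highest (20.2 against 15.1 in WT FSH gonadotropes), and LH gonadotropes lay below somatotropes alpha, at 3.29 and 3.42 in the gnrh3-/- library and 3.11 and 4.27 in the WT library. The highest gnrh3-/- level of egr1 was in corticotropes, 13.4 against 11.4 in WT corticotropes. In the gnrh3-/- library the intervals of somatolactotropes alpha, FSH gonadotropes and somatotropes beta overlapped their neighbours in this order (10.0, 9.75 and 9.57).

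egr4 was highest in corticotropes of both genotypes, at 27.8 in gnrh3-/- cells and 21.7 in WT cells. LH gonadotropes, at 5.62 in gnrh3-/- cells and 3.68 in WT cells, and somatotropes alpha, at 1.34 and 1.91, were again the lowest. The order of the other types differed from that of egr1: somatotropes beta ranked 4 for egr1 and 7 for egr4 in the gnrh3-/- library, and 2 for egr1 and 7 for egr4 in the WT library. Across the 18 combinations of type and library egr4 was the gene most like egr1 of 5696 genes (Pearson r = 0.887 of log2 levels, a description over points that share 2 libraries and the depth of each type). egr2a was highest in FSH gonadotropes of the gnrh3-/- library (3.12 against 3.05 in WT) and in corticotropes of the WT library (2.39 in gnrh3-/- against 3.85 in WT). Its paralog egr2b was highest in LH gonadotropes of both, at 0.758 in gnrh3-/- cells and 0.457 in WT cells. egr3 was highest in FSH gonadotropes, at 1.54 in gnrh3-/- cells and 2.05 in WT cells, where the WT interval overlapped that of corticotropes (2.004).

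The NR4A genes followed another order. Among the 9 types nr4a1 was highest in somatolactotropes alpha, at 5.82 in gnrh3-/- cells and 5.05 in WT cells. In the WT library the interval of lactotropes (4.91) overlapped it. Without hormone genes in the total, WT lactotropes were above WT somatolactotropes alpha, at 6.42 against 5.26. Corticotropes, where the mammalian ortholog is best known, had 0.501 in gnrh3-/- cells and 1.45 in WT cells, the lowest of the 9 types in the gnrh3-/- library. nr4a2a was nearly confined to corticotropes: 56 of its UMIs in gnrh3-/- cells and 79 in WT cells of the 13 types came from them, and the others held 2 UMIs, 1 in gnrh3-/- thyrotropes and 1 in gnrh3-/- somatotropes beta. nr4a3 was highest in somatolactotropes alpha of the gnrh3-/- library (0.828 against 1.31 in WT) and in corticotropes of the WT library (0.437 in gnrh3-/- against 2.26 in WT). The undetermined type, with 17 gnrh3-/- and 11 WT cells, had still more nr4a3, at 6.27 in gnrh3-/- cells and 4.61 in WT cells. Its level of nr4a1 was 2.62 in gnrh3-/- cells and 8.10 in WT cells, the latter above that of WT somatolactotropes alpha.

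npas4a was highest in LH gonadotropes of both libraries, at 5.13 in gnrh3-/- cells and 3.83 in WT cells. No UMI of npas4a was found in the 64 gnrh3-/- or the 37 WT her6+ cells, where 3 counts would be a level of 0.0896 in gnrh3-/- cells and 0.135 in WT cells. Somatotropes alpha were also near the bottom, at 0.0326 in gnrh3-/- cells and 0.0304 in WT cells. In gnrh3-/- somatotropes alpha the estimated part of free RNA was 18.8% of that level.

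Between the genotypes, 91 of the 130 combinations of gene and type had enough UMIs for a ratio. Of these, 27 were at least 1.5-fold lower and 12 at least 1.5-fold higher in gnrh3-/- cells, and 52 lay within 1.5-fold. Over all genes with the same minimum, 14.6% of 80995 combinations were lower and 9.14% higher. The interval lay clear of no difference in 23 of the 27 and 10 of the 12, which was not counted over all genes. The median log2 ratio of the 91 was -0.20, against -0.07 over all genes. Scaled with the TMM method of edgeR in place of all UMIs, 17 were lower and 14 higher with a median of -0.09, against 10.3% lower, 11.9% higher and a median of 0.03 over all genes. This scaling moves every log2 ratio of a type by the same amount, from -0.08 in LH gonadotropes to 0.26 in lactotropes. Under it the share of all genes was counted over the types together and not within a type. The heat map of log2 ratios shows that the lower values were unevenly spread over genes and types.

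**Figure D2:**
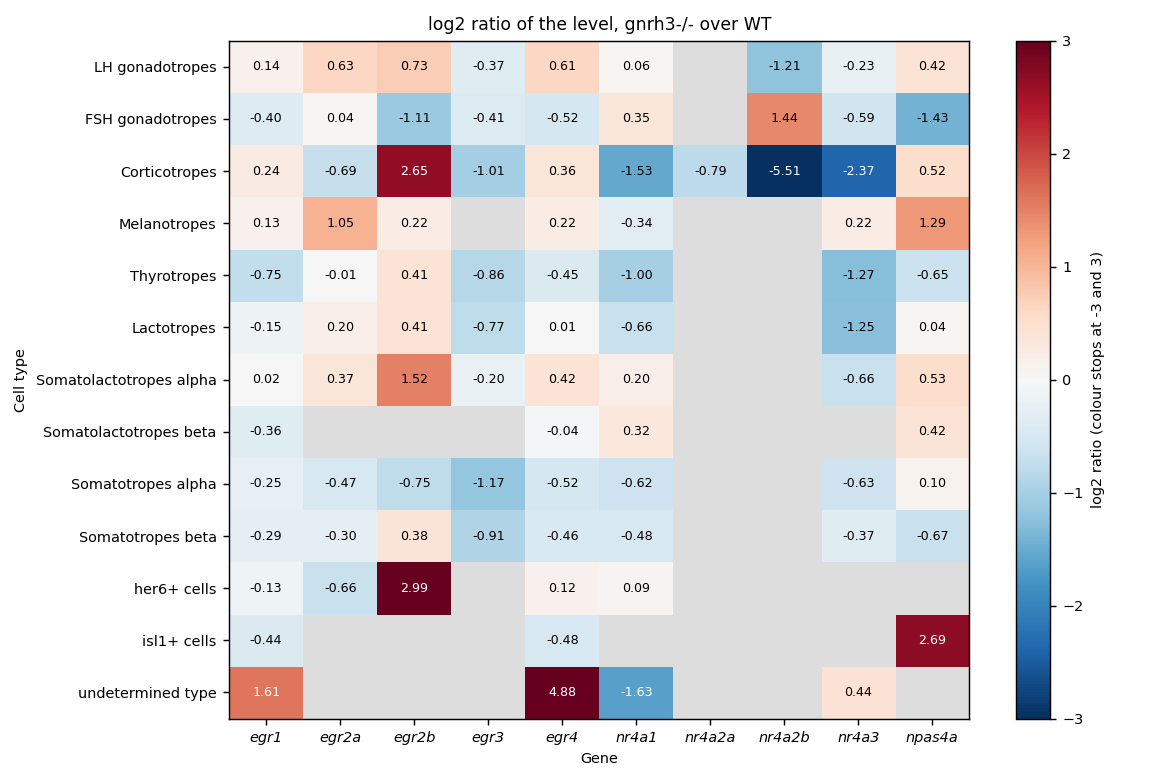
Log2 ratio (gnrh3-/- over WT) for the 10 genes (columns) in 13 cell types (rows of the map), with grey where a gene had under 20 UMIs over both libraries; the colour scale stops at -3 and 3. The lowest value is nr4a2b in corticotropes, -5.51, and nr4a1, nr4a3 and egr3 hold no value past 1.5-fold higher.

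By gene, egr3 and nr4a3 leaned furthest to one side. egr3 was below 0 in all 8 types with a ratio, at -1.17 to -0.20 on the log2 scale, and past 1.5-fold in 5 of them. When each cell was thinned to 2000 UMIs, 6 of the 8 were below 0. nr4a3 was past 1.5-fold lower in 6 of 10 types and higher in 0, and nr4a1 lower in 5 of 12 and higher in 0. Over all genes 14.6% of combinations were lower and 9.14% higher. Calls lost in at least 1 of 9 other settings were those of nr4a3 in FSH gonadotropes, somatolactotropes alpha and somatotropes alpha. The same held for nr4a1 in lactotropes and somatotropes alpha, and for egr3 in lactotropes and in somatotropes alpha and beta. egr1 and egr4, the genes with the most UMIs, were called in the smallest share of their types. egr1 passed 1.5-fold lower in 1 of 13 types and higher in 1, and egr4 passed it lower in 0 of 13 and higher in 2. The value of egr4 in the undetermined type, 4.88, was nonetheless the highest of the 91. egr2b went both ways, lower in 2 and higher in 4 of 10 types.

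Corticotropes, which secrete adrenocorticotropic hormone made from Pomc, held the lowest log2 ratio of the 91 and the most members called lower. All 10 genes had a ratio there, of which 6 were past 1.5-fold lower and 1 past it higher, where 18.5% of all genes were lower and 9.56% higher. The median of the 10 was -0.74 on the log2 scale, against -0.11 over all genes of the type. Under TMM scaling 5 were lower and 2 higher, and the share of all genes of the type was not counted for it. The type held 274 gnrh3-/- cells and 186 WT cells, at a median of 4231 UMIs in gnrh3-/- cells and 6481 in WT cells.

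The nuclear receptor gene nr4a2b had 5 UMIs in gnrh3-/- corticotropes and 186 in WT corticotropes. Its level was 0.0321 (0.0104 to 0.0750) in gnrh3-/- cells and 1.46 (1.26 to 1.69) in WT cells, a log2 ratio of -5.51 (-7.15 to -4.26). The WT UMIs lay in many cells, since 1.82% of gnrh3-/- corticotropes and 23.1% of WT corticotropes had a UMI of nr4a2b, and the WT cell with the most held 10.8% of them. With every cell thinned to 2000 UMIs the shares were 0.775% of gnrh3-/- cells and 15.8% of WT cells. Melanotropes, which also express pomca, had no UMI of nr4a2b in either library, at a median of 4434 UMIs per cell in the gnrh3-/- library and 8100 in the WT library.

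nr4a3, another orphan receptor gene, had 68 UMIs in gnrh3-/- and 287 in WT corticotropes, a level of 0.437 against 2.26. Its log2 ratio was -2.37 (-2.77 to -1.98), and 0.302% of the ranked genes of the type had a lower one. nr4a1 had 78 UMIs in gnrh3-/- and 184 in WT corticotropes, a level of 0.501 against 1.45 and a log2 ratio of -1.53 (-1.93 to -1.14). nr4a2a, with 56 UMIs in gnrh3-/- and 79 in WT cells, had the smallest difference of the family at -0.79 (-1.31 to -0.27). All 4 NR4A genes were therefore lower in gnrh3-/- corticotropes, by unequal amounts.

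**Figure D3:**
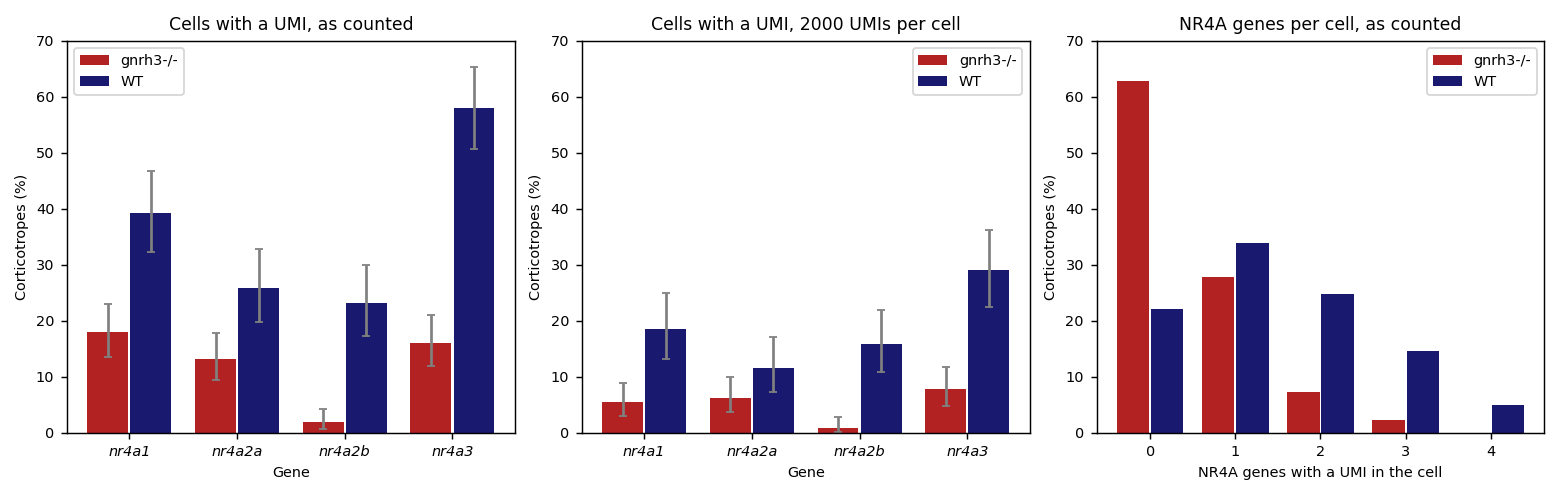
NR4A genes in corticotropes, gnrh3-/- left of WT: the percent of cells with a UMI of each gene as counted and after thinning to 2000 UMIs per cell (bars with exact Clopper-Pearson 95% intervals), and the percent of cells by the number of NR4A genes with a UMI. gnrh3-/- corticotropes are below WT corticotropes in all 4 genes, and 62.8% of gnrh3-/- cells and 22.0% of WT cells had no UMI of any of them.

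Counted together, 37.2% of gnrh3-/- corticotropes (31.5% to 43.2%) and 78.0% of WT corticotropes (71.3% to 83.7%) had a UMI of at least 1 NR4A gene. UMIs of 2 or more of the genes were found in 9.49% of gnrh3-/- cells and 44.1% of WT cells. UMIs of all 4 were found in 0 of 274 gnrh3-/- cells, where 3 cells would be 1.09%, and in 9 of 186 WT cells. In cells thinned to 2000 UMIs, 18.6% of gnrh3-/- cells (14.0% to 23.9%) and 51.4% of WT cells (43.9% to 58.8%) had at least 1. The genes also met in the same cells: of the 43 WT corticotropes with nr4a2b, 72.1% had nr4a1 and 74.4% had nr4a3, against 29.4% and 53.1% of the 143 WT corticotropes without it. The cells with nr4a2b were slightly deeper, with a median of 7038 UMIs against 6367 in those without. In thinned cells nr4a1 was found in 41.4% (23.5% to 61.1%) of WT cells with nr4a2b and in 14.3% (9.17% to 20.8%) of those without, intervals that do not overlap. nr4a3 was found in 44.8% (26.4% to 64.3%) of WT cells with nr4a2b and in 26.0% (19.2% to 33.6%) of those without, intervals that overlap.

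Of the EGR genes, egr3 and egr2a were also called lower in corticotropes, and the other 3 and npas4a were not. egr3 had 155 UMIs in gnrh3-/- and 255 in WT cells, with a level of 0.996 against 2.004 and a log2 ratio of -1.01. egr2a had a level of 2.39 in gnrh3-/- and 3.85 in WT corticotropes, a log2 ratio of -0.69 that lost its call at -0.56 under TMM scaling. egr1 and egr4 were above the WT level, at 0.24 and 0.36 on the log2 scale, within 1.5-fold. npas4a, at 1.97 in gnrh3-/- cells and 1.38 in WT cells, had a log2 ratio of 0.52, which passed 1.5-fold at 0.64 under TMM scaling. egr2b was called higher on 23 UMIs in gnrh3-/- cells against 3 in WT cells, with 43.5% of the gnrh3-/- UMIs in 1 cell, and its log2 ratio of 2.65 was 0.50 in thinned cells.

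Some corticotrope values moved beside these. The 7 hormone genes of other types summed to a level of 245 in gnrh3-/- corticotropes and 46.8 in WT corticotropes, all 7 higher in gnrh3-/- cells, of which smtla was at 0 in WT cells. Without the 13 gnrh3-/- and 2 WT cells in which such a gene held over 5% of the UMIs, the log2 ratio of nr4a2b was -5.34, of nr4a3 -2.24, of nr4a1 -1.69 and of nr4a2a -0.62. In empty droplets nr4a2b was also lower in the gnrh3-/- library, at 0.0197 against 0.180 in the WT library. The estimated part of free RNA in the level of a gene, highest among the 10, was 2.31% in gnrh3-/- corticotropes and 0.997% in WT corticotropes. These are estimates and not upper limits. The 3 red blood cell genes summed to 0.141 in gnrh3-/- and 0 in WT corticotropes, and the 4 neuronal genes to 2.74 and 2.86. Genes of the heat-shock response summed to 139 in gnrh3-/- and 170 in WT corticotropes, with 3 of 11 lower, where 18.5% of all genes were lower. Their part in the result was not tested.

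Other genes induced by activity, a list of 64 present genes that holds AP-1 factors, kinases and growth arrest genes, leaned the same way in corticotropes. Of 46 with a ratio, 17 were past 1.5-fold lower and 2 higher, where 18.5% of all genes were lower and 9.56% higher. The median of the 46 was -0.45, against -0.11 over all genes of the type. The lowest of the list were the AP-1 gene fosl2, with 112 UMIs in gnrh3-/- cells and 292 in WT cells (log2 ratio -1.67), and the salt-inducible kinase gene sik1, with 127 and 321 (-1.63). The highest were ier2b (0.84) and junbb (0.78). The EGR co-repressor gene nab1a, whose product binds EGR proteins, had 86 UMIs in gnrh3-/- and 211 in WT corticotropes (-1.58), and of the 4 co-repressor and partner genes with a ratio 2 were past 1.5-fold lower and 1 higher. Of the 12 upstream factor genes with a ratio, those of CREB and MEF2 proteins among them, 0 were past 1.5-fold lower and 2 higher. The lean of the other activity-induced genes was not particular to corticotropes. In lactotropes 15 of 43 were lower and 2 higher, where 20.8% of all genes were lower and 6.97% higher. In her6+ cells 16 of 43 were lower and 4 higher, where 21.2% and 9.91% were. Somatolactotropes beta went the other way, with 4 of 32 lower and 13 higher, where 12.8% and 16.2% were.

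LH gonadotropes, which make luteinizing hormone, showed no common direction. Of 9 members with a ratio, 1 was past 1.5-fold lower and 3 higher, where 5.97% of all genes were lower and 12.3% higher, and their median was 0.14 against 0.08 over all genes. egr4 had 2960 UMIs in 603 gnrh3-/- cells and 1402 in 232 WT cells, a level of 5.62 against 3.68 and a log2 ratio of 0.61 (0.52 to 0.70). egr2a (0.63) and its paralog egr2b (0.73) were the others called higher. Under TMM scaling egr4 at 0.53 and egr2a at 0.55 were within 1.5-fold, which leaves egr2b. As a mean of per-cell shares egr2b, at 0.53, was within it too.

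Most other members in LH gonadotropes lay within 1.5-fold of the WT level. egr1 had 1449 UMIs in gnrh3-/- and 953 in WT cells and a log2 ratio of 0.14 (0.02 to 0.26). nr4a1, at 2.19 in gnrh3-/- and 2.10 in WT cells, had one of 0.06, nr4a3 had -0.23 and egr3 -0.37. In thinned cells egr3, at -0.73, was past 1.5-fold lower. npas4a had 0.42 (0.33 to 0.51) and was found in 53.1% of gnrh3-/- and 38.7% of WT cells at 2000 UMIs per cell. nr4a2b was the gene called lower, on 12 UMIs in gnrh3-/- and 20 in WT cells, and in thinned cells its log2 ratio was 0.21. Of 47 other activity-induced genes, 5 were lower and 15 higher in LH gonadotropes, where 5.97% of all genes were lower and 12.3% higher. The median of the 47 was 0.42, against 0.08 over all genes of the type. Among the 47, gadd45bb, a growth arrest gene, had 1.27, and rcan1a, a calcineurin regulator, -1.70. The 6 hormone genes of other types summed to 272 in gnrh3-/- and 25.1 in WT LH gonadotropes, and without the cells in which one held over 5% of the UMIs the log2 ratio of egr4 was 0.61.

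In FSH gonadotropes most ratios lay below 0. Of 9 members, 3 were past 1.5-fold lower and 1 higher, where 7.36% of all genes were lower and 10.8% higher, and the median was -0.41 against 0.02. npas4a had 494 UMIs in 794 gnrh3-/- cells and 657 in 231 WT cells, and of the 1540 genes of the type with at least 500 UMIs 0 had a lower ratio than its -1.43 (-1.60 to -1.26). It was found in 29.6% of gnrh3-/- and 58.4% of WT cells, and at 2000 UMIs per cell in 12.2% of gnrh3-/- and 27.0% of WT cells. The her6+ cells, where it was found in 0 cells, had a median of 3520 UMIs in the gnrh3-/- library and 4774 in the WT library, against 8510 and 14919 in FSH gonadotropes. The order was the reverse of LH gonadotropes, where the share of cells with npas4a was higher in the gnrh3-/- library.

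egr1 (-0.40), egr3 (-0.41) and egr4 (-0.52) were below 0 in FSH gonadotropes within 1.5-fold, and egr2a was level, at 3.12 in gnrh3-/- and 3.05 in WT cells. egr2b, on 93 UMIs in gnrh3-/- and 99 in WT cells, had a log2 ratio of -1.11 (-1.53 to -0.68). nr4a1 was above 0 there, at 0.35 (0.17 to 0.54), whereas nr4a3 was at -0.59 (-0.85 to -0.33), just past 1.5-fold. The 6 hormone genes of other types summed to 357 in gnrh3-/- and 52.0 in WT FSH gonadotropes, and without cells rich in them the log2 ratio of npas4a was -1.36 and that of nr4a3 -0.51, within 1.5-fold. nr4a2b was called higher on 22 UMIs in gnrh3-/- and 4 in WT cells, with an interval of -0.12 to 3.44 that included no difference. In thinned cells no WT UMI of nr4a2b was left. With the limit of 3 counts in its place the log2 ratio was -3.33, a lower bound that gives no direction. Of 50 other activity-induced genes, 4 were lower and 7 higher, where 7.36% of all genes were lower and 10.8% higher. The median of the 50 was 0.25, against 0.02 over all genes of the type. Their lowest were the immediate-early genes ier2a (-1.34) and ier2b (-0.98).

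Thyrotropes, which make thyroid-stimulating hormone, had members lower from all 3 families. Of 8 with a ratio, 5 were past 1.5-fold lower and 0 higher, where 19.3% of all genes were lower and 7.5% higher, and the median was -0.70 against -0.14. egr1 had 1075 UMIs in 410 gnrh3-/- cells and 1407 in 205 WT cells, a level of 6.83 against 11.5 and a log2 ratio of -0.75. nr4a1 had a level of 1.09 in gnrh3-/- and 2.19 in WT thyrotropes (-1.003), and nr4a3 had 0.318 and 0.766 (-1.27). egr3 had -0.86 and npas4a -0.65. Under TMM scaling 3 of 8 were past 1.5-fold lower, and egr1 at -0.57 and npas4a at -0.48 were within it. No share of all genes of the type was counted under that scaling. The 7 hormone genes of other types summed to 386 in gnrh3-/- and 12.3 in WT thyrotropes, and without the cells rich in them the log2 ratio of egr1 was -0.69 and that of npas4a -0.54, within 1.5-fold.

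Melanotropes and isl1+ cells held more npas4a in the gnrh3-/- library. In melanotropes, which make melanocyte-stimulating hormone, npas4a had 234 UMIs in 137 gnrh3-/- cells and 103 in 85 WT cells, a level of 3.47 against 1.42 and a log2 ratio of 1.29 (0.95 to 1.64). It was found in 45.2% of gnrh3-/- and 21.4% of WT melanotropes at 2000 UMIs per cell. The 7 hormone genes of other types summed to 153 in gnrh3-/- and 5.21 in WT melanotropes, and without the cells rich in them the log2 ratio of npas4a was 1.32. In melanotropes 0 of 7 members were lower and 2 higher, where 15.1% of all genes were lower and 9.39% higher. The second gene called higher was egr2a, on 23 UMIs in gnrh3-/- and 12 in WT cells. The interval of its log2 ratio, -0.02 to 2.19, included no difference, and the ratio was -0.46 in thinned cells. In isl1+ cells npas4a had 40 UMIs in 39 gnrh3-/- cells and 5 in 19 WT cells, all 5 in 1 cell, a log2 ratio of 2.69 (1.35 to 4.39). In that type 0 of 3 members were lower and 1 higher, where 15% of all genes were lower and 16.3% higher.

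In lactotropes, the prolactin cells, 3 of 8 members were lower and 0 higher, where 20.8% of all genes were lower and 6.97% higher. They were nr4a3 at -1.25 (-1.80 to -0.70), egr3 at -0.77 and nr4a1 at -0.66. Under TMM scaling egr3 at -0.51 and nr4a1 at -0.41 were within 1.5-fold, and egr2b at 0.67 passed it upwards. That left 1 of 8 lower and 1 higher. In somatotropes alpha, the larger group of growth hormone cells, 4 of 8 were lower and 0 higher, where 14.7% of all genes were lower and 6.21% higher. There nr4a1 had 515 UMIs in gnrh3-/- and 470 in WT cells (-0.62). The others rested on few UMIs, egr2b on 16 in each library, egr3 on 9 in gnrh3-/- and 12 in WT cells, and nr4a3 on 24 and 22. Their intervals included no difference: -1.85 to 0.34 for egr2b, -2.60 to 0.20 for egr3 and -1.53 to 0.27 for nr4a3. Under TMM scaling nr4a1 and nr4a3, both at -0.49, were within 1.5-fold, which left 2 lower, and in thinned cells the log2 ratio of egr3 was 0.12. In somatotropes beta 2 of 8 were lower, egr3 (-0.91) and npas4a (-0.67), and 0 higher, where 19.9% of all genes were lower and 5.7% higher. Under TMM scaling npas4a at -0.47 was within 1.5-fold, and in thinned cells egr3 at -0.52 was.

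Somatolactotropes alpha, which had the most nr4a1, had most members within 1.5-fold: 1 of 8 was lower and 1 higher, where 12.5% of all genes were lower and 8% higher. egr2b was higher, on 71 UMIs in gnrh3-/- and 19 in WT cells, with a log2 ratio of 1.52 (0.78 to 2.34). nr4a3 was lower at -0.66, which lost its call under TMM scaling at -0.58. npas4a, at 0.53, passed 1.5-fold at 0.61 under TMM scaling, which made 2 of 8 higher and 0 lower. In somatolactotropes beta all 4 members with a ratio lay within 1.5-fold, where 12.8% of all genes were lower and 16.2% higher. In her6+ cells 1 of 5 members was lower, egr2a on 22 UMIs in gnrh3-/- and 23 in WT cells, and 1 higher, where 21.2% of all genes were lower and 9.91% higher. The log2 ratio of egr2a was -0.66 (-1.57 to 0.25), an interval that included no difference. Under TMM scaling egr2a was at -0.45, and 0 members were lower. The gene called higher was egr2b, with 24 UMIs in gnrh3-/- and 2 in WT cells, a log2 ratio of 2.99 (0.98 to 6.12), and 66.7% of the gnrh3-/- UMIs in 1 cell. In the undetermined type egr4 had 32 UMIs in gnrh3-/- and 1 in WT cells, a log2 ratio of 4.88 (2.29 to 10.22). Of the gnrh3-/- UMIs of egr4, 53.1% were in 1 cell, and without the cell with the most UMIs its log2 ratio was 2.18. nr4a1, the gene called lower, had 18 UMIs in gnrh3-/- and 51 in WT cells, of which 1 cell held 55.6% in the gnrh3-/- library and 58.8% in the WT library. egr1, the second gene called higher, had 20 and 6, of which 1 cell held 55% in the gnrh3-/- library and all in the WT library, and its log2 ratio of 1.61 was 0.45 as a mean of per-cell shares. There 1 of 4 members was lower and 2 higher, where 27.5% of all genes were lower and 13.6% higher.

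**Figure D4:**
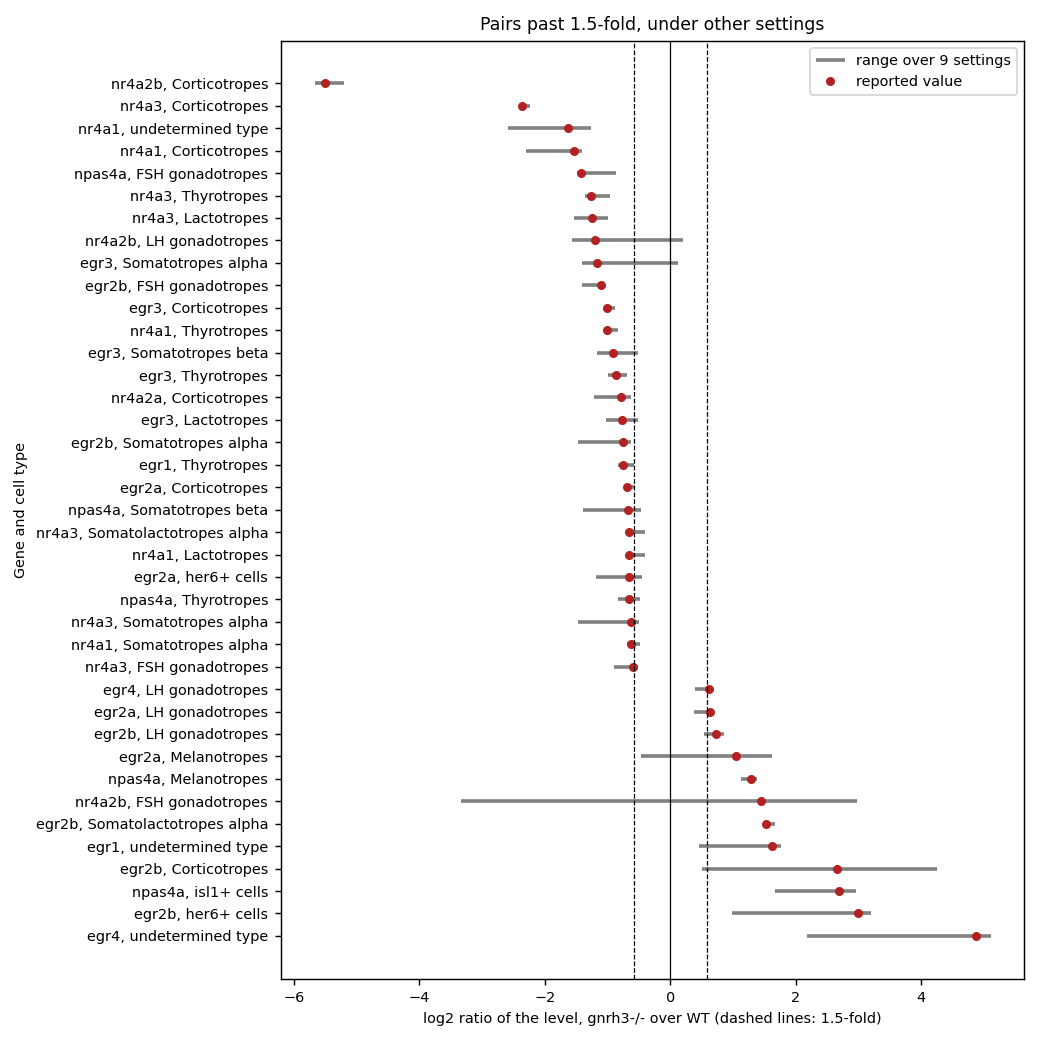
The 39 combinations of gene and type past 1.5-fold: the log2 ratio, gnrh3-/- over WT (point), and its lowest and highest value over 9 other settings of the processing (line), with dashed lines at 1.5-fold. 13 of the 27 lower and 5 of the 12 higher combinations stay past 1.5-fold in every setting, and nr4a2b in corticotropes stays between -5.67 and -5.20. The share of all genes that stays past it was not counted. The low end of nr4a2b in FSH gonadotropes, from thinned cells, is a bound set by the limit of 3 counts.

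The genes were also counted per cell, with every cell thinned to 2000 UMIs, which left out 1 to 64 gnrh3-/- and 0 to 8 WT cells of a type. Somatotropes alpha had the fewest members per cell of the 9 types in both libraries, and the most were found in somatolactotropes alpha of the gnrh3-/- library (2.67, against 2.47 in WT) and in FSH gonadotropes and corticotropes of the WT library. The mean was 2.59 in gnrh3-/- and 3.03 in WT FSH gonadotropes, and 2.62 and 3.03 in corticotropes. LH gonadotropes went the other way, at 2.09 in gnrh3-/- and 1.70 in WT cells, and 18.9% of gnrh3-/- LH gonadotropes against 32.6% of WT ones had none of the 10. Melanotropes, at 2.36 in gnrh3-/- and 2.02 in WT cells, and somatolactotropes alpha were also higher in the gnrh3-/- library. The remaining types of the 9 were lower. Thyrotropes had 1.86 in gnrh3-/- and 2.53 in WT cells. Somatotropes alpha had 0.693 in gnrh3-/- and 0.775 in WT cells. Hormone genes held 60.4% of the gnrh3-/- and 62.3% of the WT UMIs in somatotropes alpha. In somatolactotropes alpha they held 3.94% and 3.99%. The 2000 UMIs thus left unequal room for other genes, and the order of types was not corrected for this.

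**Figure D5:**
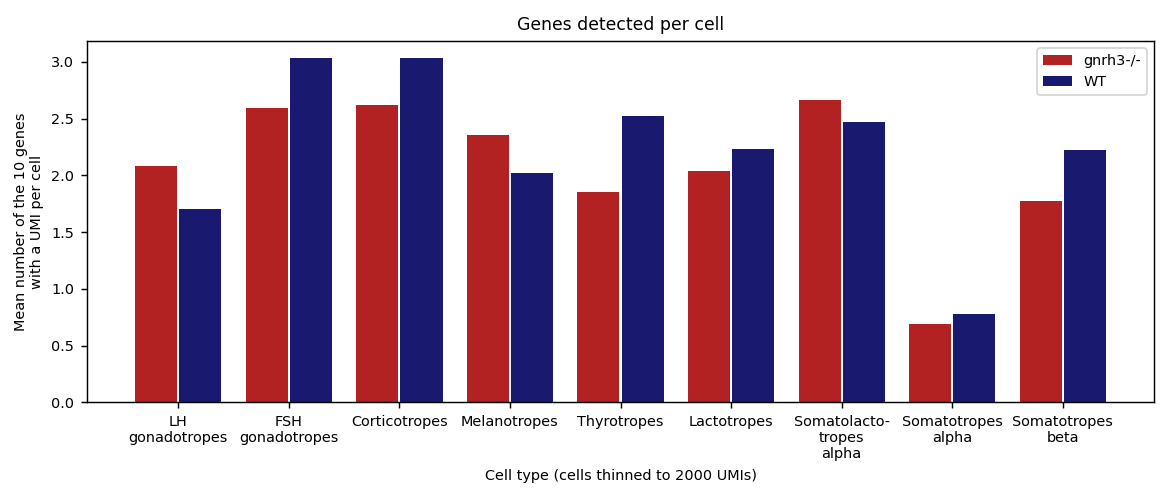
Mean number of the 10 genes detected per cell, with cells thinned to 2000 UMIs, by cell type and with gnrh3-/- beside WT. LH gonadotropes (2.09 against 1.70), melanotropes (2.36 against 2.02) and somatolactotropes alpha (2.67 against 2.47) are higher in the gnrh3-/- library. The other types are lower, among them FSH gonadotropes (2.59 against 3.03), corticotropes (2.62 against 3.03) and thyrotropes (1.86 against 2.53). The means are not corrected for the share of UMIs on hormone genes, which differs between types.

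Whether genes were found in the same cells was also counted in cells thinned to 2000 UMIs. In all 18 combinations of 9 types and 2 libraries, the share of cells with egr4 was higher among cells with egr1 than among cells without it. In gnrh3-/- LH gonadotropes egr4 was found in 62.9% of the 205 cells with egr1 and 28.1% of the 392 without. In WT LH gonadotropes the shares were 62.3% and 19.9%, and in WT corticotropes 89.1% and 37.0%. Somatotropes alpha had narrower differences, 32.1% and 21.8% in gnrh3-/- cells and 34.8% and 25.0% in WT cells. All pairs of members with at least 500 UMIs were counted, among cells of the same type and library. The share was higher with the partner in 322 of 418 comparisons. In 72 of these the 95% intervals of both shares lay apart in that direction, and in 2 others in the opposite one. Pairs of other genes were not counted beside them, and the share of hormone UMIs in each cell was not held equal. With nr4a3 as the partner, the share of cells with egr4 was higher in 6 of 12 comparisons, and that of cells with egr2b in 5 of 12. With npas4a as the partner, the share of cells with nr4a3 was higher in 8 of 16.

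The genes whose levels over the 18 combinations of type and library were most like those of a member were mostly not of its family. The gene most like egr2a was hivep3a (r = 0.918), a zinc finger gene, that most like egr3 was fam120a (0.946) and that most like egr4 was icn (0.944). For nr4a1 it was the adhesion gene alcamb (0.921), for nr4a3 the peroxisomal transporter gene abcd3a (0.929), for egr2b si:ch211-217k17.7 (0.879) and for npas4a serpina10a (0.939). egr2a is the member that lies on the chromosome of gnrh3, with 429 protein-coding genes between them in the GRCz12tu gene table.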

How the data were processed

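Single cells of 1 gnrh3-/- and 1 WT library were captured with a 10x 3′ kit. The authors deposited UMI counts per gene and barcode, not normalized, for all barcodes, and the same counts with a cell type for the cells they kept. The submitters' processing notes name Cell Ranger 6.0.2, Seurat 4 and GRCz11. In kept cells, 0 entries differed between these tables. Cell types were used as deposited. The values of 1 of the 14 types are not reported here.

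Counts were summed per type and library with Python 3.11.15, pandas 2.3.3 and scipy 1.17.1. Ratios need at least 20 UMIs, and 3 counts are the limit where a count is 0 (a level of 0.00338 to 0.476 by type and library). Thinning drew 2000 UMIs per cell with a fixed seed and left out shallower cells. Free RNA was estimated from hormone genes of other types against the profile of 71649 gnrh3-/- and 76792 WT empty droplets. For each such gene the 10% of cells with the most of it were left out, and the median over the genes was taken. Likeness is Pearson r of log2(level + 0.1) over genes with at least 500 UMIs. Alternatives were the mean of per-cell shares, TMM scaling (edgeR 4.0.16), totals without hormone genes, free RNA subtracted, cells without Scrublet doublets, at least 1000 UMIs per cell, thinning, the top cell left out, cells with over 5% of a foreign hormone gene left out, and other minimums and folds. Doublets were kept. Scrublet (scanpy 1.11.5) called 163 gnrh3-/- cells (3.40%) and 7 WT cells (0.319%). The computation was tested on simulated data.

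All 10 members are named, with the gene most like each of the 8 that had at least 500 UMIs, and of each gene list the 2 highest and lowest ratios may be. The members and lists were chosen with earlier results of these data known. Promoter and protein sequences were not used here.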

Additional observations from a re-analysis of the deposited data

Results flagged for a closer look

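In 5 of the 10 genes the log2 ratio (gnrh3-/- over WT) passed 1.5-fold downwards in at least 1 cell type and upwards in another. The share of all genes that did so was not counted, so the 5 cannot be called many or few. Over all combinations of gene and type, 14.6% were lower and 9.14% higher. With 1 library per genotype the difference between the types was not tested. egr1 was at -0.75 in thyrotropes, -0.57 under TMM scaling, and 1.61 in the undetermined type, which held 20 UMIs in gnrh3-/- and 6 in WT cells. Of these, 1 cell held 55% of the gnrh3-/- UMIs and 1 cell all WT UMIs, and the value in the undetermined type was 0.45 as a mean of per-cell shares and 0.58 without Scrublet doublets. egr2a was at -0.69 in corticotropes and 0.63 in LH gonadotropes, and under TMM scaling both, at -0.56 and 0.55, were within 1.5-fold. egr2b was at -1.11 in FSH gonadotropes and 2.99 in her6+ cells, where 1 cell held 66.7% of the gnrh3-/- UMIs. npas4a was at -1.43 in FSH gonadotropes and 2.69 in isl1+ cells, where 1 cell held all 5 WT UMIs. nr4a2b was at -5.51 in corticotropes and 1.44 in FSH gonadotropes, where its interval of -0.12 to 3.44 included no difference.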

How the results depend on the processing

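No paired analysis was possible because each genotype had 1 library. The count of combinations past 1.5-fold lower, 27, was 17 under TMM scaling and 12 at 2-fold, and the count past it higher, 12, was 5 with a minimum of 50 UMIs. Under the other alternatives these counts stayed within 1.5 times, the median over combinations lay between -0.40 and -0.09, that of LH gonadotropes between -0.03 and 0.28 and that of FSH gonadotropes between -0.52 and -0.31. Between 4 and 7 genes had the same highest type in both libraries. Shares of all genes were not counted under the alternatives, apart from TMM scaling. Of the 39 combinations called, 39 kept their side with free RNA subtracted, 37 without Scrublet doublets, 35 without cells holding over 5% of a foreign hormone gene, 32 as means of per-cell shares, 29 when thinned and 27 under TMM scaling. The sign of 4 changed in thinned cells, where the cells with a UMI were too few to settle a direction. nr4a2b was at 0.21 in LH gonadotropes, with a UMI in 3 gnrh3-/- and 1 WT cells. egr2a was at -0.46 in melanotropes, with a UMI in 7 gnrh3-/- and 4 WT cells. egr3 was at 0.12 in somatotropes alpha, with a UMI in 3 gnrh3-/- and 1 WT cells. The -3.33 of nr4a2b in FSH gonadotropes was a lower bound, with no WT UMI left. At 1 library per genotype the spread between animals is not known.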

Other observations

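The heat-shock genes are a group of 13 chaperone and stress genes. Of 11 with at least 20 UMIs in somatolactotropes beta, 8 were at least 1.5-fold higher and 0 lower in gnrh3-/- cells, where 16.2% of all genes were higher, with a median log2 ratio of 1.89 and a summed level of 165 in gnrh3-/- and 65.6 in WT cells. In somatolactotropes alpha 6 of 10 were higher, where 8% of all genes were, with a summed level of 86.6 in gnrh3-/- and 68.2 in WT cells. In isl1+ cells 7 of 8 were higher, where 16.3% of all genes were. In corticotropes 0 of 11 were higher and 3 lower, where 18.5% of all genes were lower. In FSH gonadotropes the heat-shock gene hsp70l was at -1.28.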
